A study of Homo sapiens with 183 samples.

Results

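The control libraries of 4 pancreatic ductal adenocarcinoma (PDAC) cell lines were compared to ask how the transcriptome of the basal-like subtype differs from that of the classical subtype when no gene of interest is removed. T3M-4 and BxPC-3 are the basal-like lines and AsPC-1 and SUIT-2 the classical lines of the study, which assigned these classes itself. All are established human cell lines that stably express Cas9 and were infected with sgRNAs against the ROSA26 locus (sgRosa), which serve as a cutting control. Poly-A RNA was collected on day 5. The study states that 2 independent sgRNAs were used for ROSA26, and the labels do not say which library received which. The sgRosa libraries of these lines make up 26 of the 183 RNA-seq libraries of the series, with 6 from T3M-4, 6 from BxPC-3, 10 from AsPC-1 and 4 from SUIT-2. Libraries were labelled rep1.x and rep2.x in T3M-4 and BxPC-3, rep1.x, rep2.x and rep3.x in AsPC-1, and 1 to 4 in SUIT-2. Libraries that share the number before the point are called an experiment here, which the labels do not state. Each class is represented by 2 lines, so the lines, and not the libraries, are the replicates of a class. Each line came in its own table and the labels give no shared harvest, so line, table and harvest cannot be told apart.

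PDAC tumors fall into a classical subtype, which keeps gene programs of the foregut and intestinal endoderm driven by factors such as HNF4A and GATA6, and a basal-like subtype, which gains programs of stratified squamous epithelium driven by the TP63 isoform ΔNp63. Squamous cells express keratins such as KRT5, KRT14 and KRT6A, and precursors of the cornified envelope, the protein shell under the membrane of differentiating keratinocytes. Classical cells express mucins, trefoil factors and brush border genes. Subtype is assigned from such genes, so a difference in them between the lines of the classes is not independent evidence of the class.

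Values are TPM, each gene's length-corrected share of the transcripts, which adds up to 1e+06 in each library and holds no read depth. A library had 11423 to 13028 genes that reached 1 TPM. SUIT-2 replicate 1 stood apart from its group: its 100 most abundant genes took 51.3% of TPM against 38.3% to 39.1% in the other SUIT-2 libraries, and its correlation with them across genes was 0.947 to 0.957, whereas libraries within each of the other lines correlated at 0.965 to 0.997. BxPC-3 replicate 2.3 held low levels of genes that the other BxPC-3 libraries lack. Over 31 genes with a median under 0.1 TPM in the other BxPC-3 libraries and at least 20 TPM in T3M-4, its summed level was 3.43% of that of T3M-4, and for genes chosen likewise from AsPC-1 and SUIT-2 it was 0.704% and 1.28%. Both libraries were kept, and counts without each of them are given beside the main counts. Markers of most other cell types were low. Of the leukocyte, endothelial, acinar and endocrine markers (7, 5, 7 and 6 genes), 3, 2, 1 and 0 passed the filter on low values. None of these separated the classes. Of 7 fibroblast markers 2 passed the filter, COL1A1, which separated, and LUM, which did not. LUM was high in AsPC-1, where its mean log2(TPM + 1) lay 6.69 above that of SUIT-2. In the AsPC-1 controls made for the CHD4 knockout it was 114 to 122 TPM.

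The distance between the classes was larger than that within them. On the log2(TPM + 1) scale, 13053 genes whose 4 line means averaged 1 TPM or above were kept. Line means of T3M-4 and BxPC-3 correlated across these genes at 0.902 and those of AsPC-1 and SUIT-2 at 0.857, whereas the 4 pairs of a basal-like and a classical line correlated at 0.778 to 0.810. At a limma adjusted p under 0.05 and a difference of at least 1, T3M-4 differed from BxPC-3 in 2424 genes (18.6%) and AsPC-1 from SUIT-2 in 3187 genes (24.4%). The pairs across the classes differed in 4014 genes (30.8%) for T3M-4 and AsPC-1, 3760 genes (28.8%) for T3M-4 and SUIT-2, 3720 genes (28.5%) for BxPC-3 and AsPC-1, and 3806 genes (29.2%) for BxPC-3 and SUIT-2. For comparison, the means of different experiments within a line were at least 1 apart in 0.437% to 5.40% of the genes.

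A gene was said to separate the classes where both basal-like line means lay at least 1 above or below both classical line means on the log2 scale, with no overlap between any libraries of the classes. This held for 618 genes that were higher in the basal-like lines, or 4.73% of the genes, and 313 that were lower, or 2.4%. These are descriptions with no test. Counts in the gene lists below are to be read beside these shares, at which a short list may well hold no separating gene. In a limma fit of the 4 line means, in which each line counts as 1 sample, 66 genes (0.506%) were higher and 23 (0.176%) lower in the basal-like lines at an adjusted p under 0.05 (Benjamini-Hochberg), and all 89 also separated the classes. An exact permutation test of 2 lines against 2 gives no two-sided p below 0.333. The class fit can give lower values because it assumes normal errors. It adds 3.15 prior degrees of freedom, drawn from the spread of all genes, to the 2 residual ones of each gene. The counts were 1 (KRT6A) and 0 when genes under the filter were also fitted, and 0 and 0 when any 1 line was left out. A second test asked of each gene whether every basal-like line differed in 1 direction from every classical line at the level of libraries, and 1698 genes (13%) were higher and 847 (6.49%) lower. With the means of experiments in place of libraries, which may not be independent within an experiment, these counts were 464 and 250. The test speaks of these 4 lines and not of other lines of a subtype.

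The median basal-like minus classical difference over all genes (the class difference) was 0.16 on the log2 scale, and median-of-ratios scaling brought it to 0.0044. With this scaling 525 genes separated upward and 433 downward, so the share of upward genes went from 66.4% to 54.8%, and among the line pairs it went from 66.7% to 53.3%. Without SUIT-2 replicate 1 the separating genes numbered 572 and 415, and the class fit gave 57 and 19. Without BxPC-3 replicate 2.3 they numbered 608 and 316, and the class fit gave 65 and 21. Of the separating genes, 500 of 618 and 266 of 313 also separated with rep1.x libraries alone beside those of SUIT-2. With rep2.x of T3M-4 and BxPC-3 and rep3.x of AsPC-1 beside those of SUIT-2, 552 and 289 did. These are called the later experiments by label number, as the labels give no dates.

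The listed stratified keratins held 5 of the 15 largest upward gaps (KRT6A, KRT17, KRT13, KRT5 and KRT14), where a gap is the distance between the nearest line means of the classes. KRT6A, a keratin of hair follicles, mucosa and wounded skin, had the largest gap between the classes, 11.16 on the log2 scale. It lay from 1445 to 5181 TPM in T3M-4 (median 2265, n = 6) and from 2182 to 2646 in BxPC-3 (median 2308, n = 6). In AsPC-1 it lay between 0 and 0.254 TPM, and it was 0.1103, 0, 0 and 0 TPM in SUIT-2 replicates 1 to 4. Libraries of the classes did not overlap, and the class difference was 11.23 (standard error 0.31, limma adjusted p = 0.00289). In bulk libraries, fewer cells that express a gene and less RNA per cell cannot be told apart. KRT17, another wound-inducible keratin, was 3305 ± 1204 TPM in T3M-4 and 7197 ± 1119 in BxPC-3 (SD, n = 6 each), against 1.55 ± 0.673 TPM in AsPC-1 and 0.163 ± 0.0641 in SUIT-2 (n = 10 and 4), with a class difference of 11.45 (adjusted p = 0.00904). KRT5, the type II keratin of the basal layer, was 318 ± 34.4 TPM in T3M-4 and 2993 ± 420.2 in BxPC-3, against 0.221 ± 0.218 TPM in AsPC-1 and 0.0146 ± 0.0293 in SUIT-2 (class difference 9.78, adjusted p = 0.0382). Its partner KRT14 had a class difference of 7.19 (0.00904), and KRT13 and KRT4, the pair of the upper layers of mucosal stratified epithelium, had 10.51 (0.0315) and 6.798 (0.00904).

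Of the stratified keratins, 7 separated upward and 0 downward of 11 tested (15 in the list), with a median class difference of 6.798. KRT6B also separated but was uneven within the class, at 65.1 ± 51.2 TPM in T3M-4 and 4.75 ± 4.66 in BxPC-3 (adjusted p = 0.31). KRT16 did not separate and was 28.4 ± 13.96 TPM in AsPC-1, against 24.02 ± 15.6 in BxPC-3. KRT6A and KRT6B, and KRT14, KRT16 and KRT17, are near-identical in parts of their sequence, so the division of reads between them is uncertain. None of the simple keratins (5 of 6 tested) separated the classes. KRT7, a simple keratin of ducts, lay just under the threshold. It was 4.37 ± 1.02 TPM in AsPC-1 against 807 ± 107 in SUIT-2, 1605 ± 113 in T3M-4 and 3781 ± 351 in BxPC-3.

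**Figure D1:**
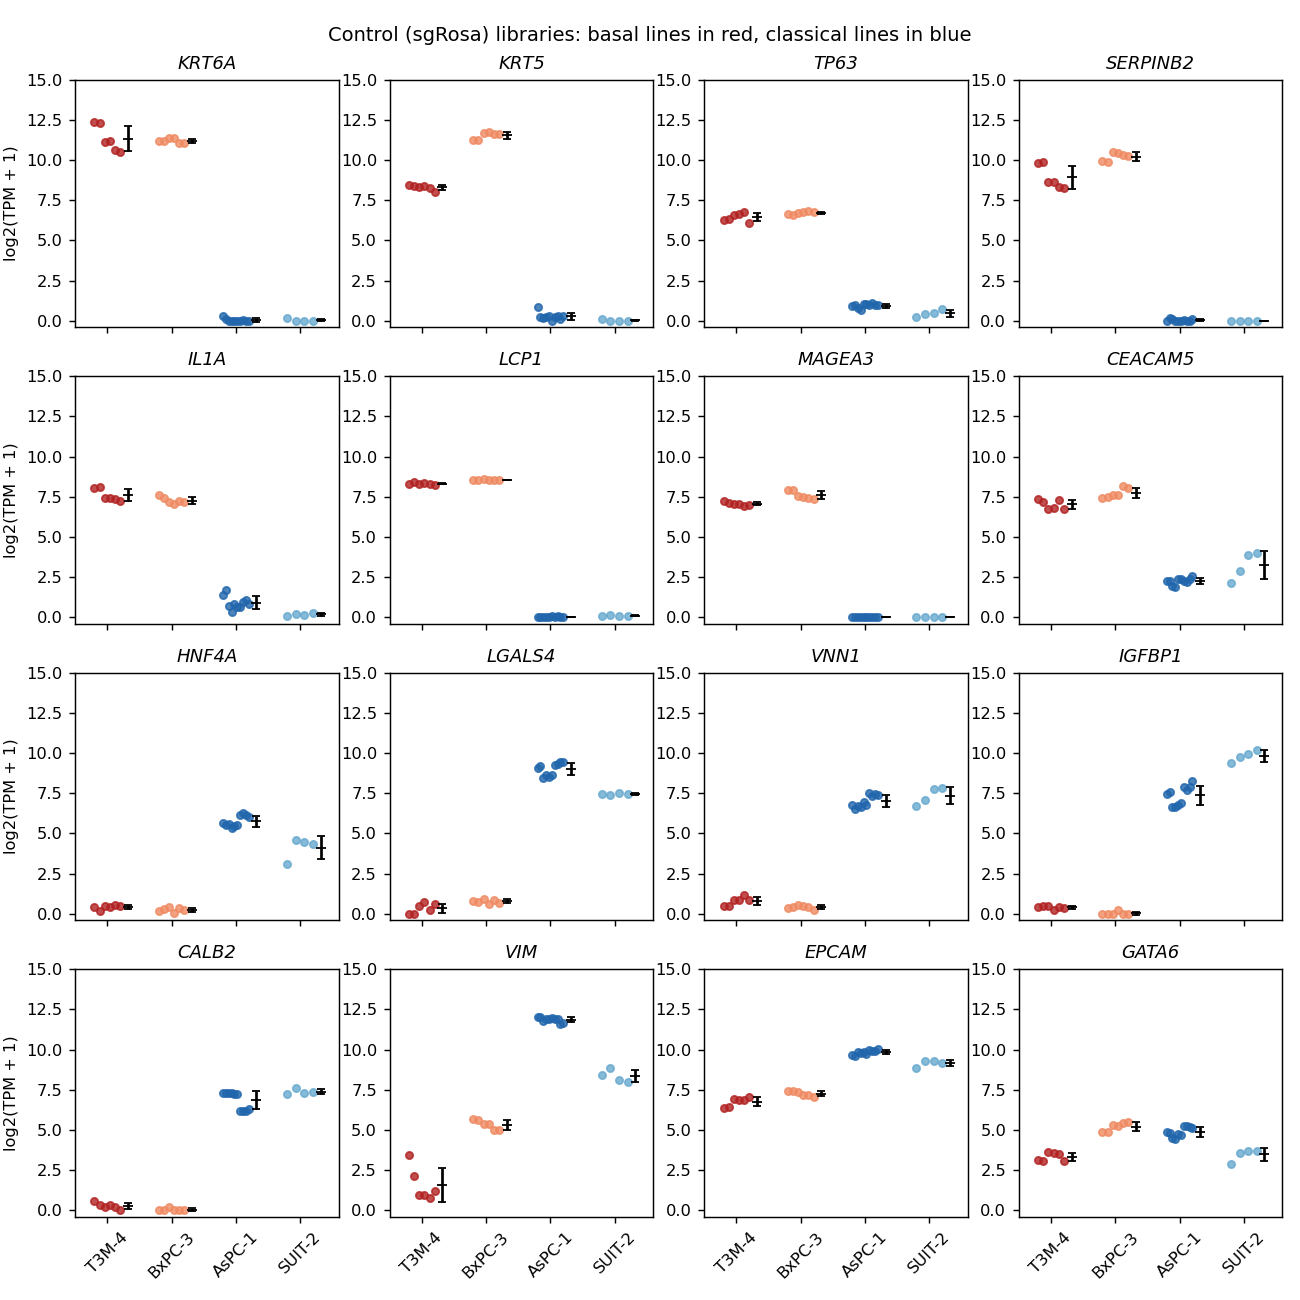
Level of 16 genes in each sgRosa library on the log2(TPM + 1) scale, by line, with the mean and SD of each line as a black bar to the right of its points. KRT6A, KRT5, TP63, SERPINB2, IL1A, LCP1, MAGEA3 and CEACAM5 lie higher in every basal-like library (red) than in any classical library (blue), HNF4A, LGALS4, VNN1, IGFBP1, CALB2, VIM and EPCAM lie lower, and GATA6 overlaps.

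Precursors of the cornified envelope followed the keratins. Of the cornified envelope genes, 11 separated upward and 1 downward of 19 tested (24 in the list), with a median class difference of 3.04. SPRR1B, a small proline-rich precursor, was 446 ± 253 TPM in T3M-4 and 544 ± 131 in BxPC-3, 0.0733 ± 0.157 in AsPC-1 and listed at 0 in all SUIT-2 libraries (class difference 8.79, adjusted p = 0.00819). SPRR1A and SPRR2A were listed at 0 in all 14 classical libraries, and were 145 ± 115 TPM in T3M-4 and 194 ± 87.6 in BxPC-3 and 108 ± 13.2 TPM in T3M-4 and 259 ± 183 in BxPC-3. SPRR2D had a class difference of 7.23 (adjusted p = 0.00904), and SPRR3, at 354 ± 374 TPM in T3M-4 and 17.5 ± 1.66 in BxPC-3, had 5.95 (0.148). The spread of these genes within a line was wide, and the SPRR2 genes are close copies whose reads may be divided in error. IVL, which encodes involucrin, was 36.9 ± 39.5 TPM in T3M-4 and 4.46 ± 1.65 in BxPC-3, and FLG, which encodes filaggrin, was 14.02 ± 13.1 TPM in T3M-4 and 3.72 ± 1.48 in BxPC-3, with none of the classical libraries above 0.367 TPM for FLG. CDSN, which encodes corneodesmosin, was the exception and was lower in the basal-like lines, at 0.842 ± 0.692 TPM in T3M-4, 0.405 ± 0.273 in BxPC-3, 5.39 ± 2.52 in AsPC-1 and 2.999 ± 0.763 in SUIT-2 (class difference -1.64, adjusted p = 0.333).

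Clade B serpins, intracellular protease inhibitors of which many are made by keratinocytes, and S100 proteins, small calcium-binding proteins, held further members. Of the clade B serpins, 6 separated upward and 0 downward of 10 tested (13 in the list), with a median class difference of 1.97. SERPINB2, also known as plasminogen activator inhibitor 2, was 544 ± 293 TPM in T3M-4 and 1211 ± 219 in BxPC-3, 0.0356 ± 0.0491 in AsPC-1 and listed at 0 in SUIT-2 (class difference 9.55, adjusted p = 0.00904). SERPINB13 (5.99, 0.0207), SERPINB3 (5.34, 0.0308) and SERPINB7 (4.93, 0.0278) passed the same test. SERPINB3 and SERPINB4 are near-identical copies. SERPINB5, which encodes maspin, did not separate, at 179 ± 82.5 TPM in T3M-4, 282 ± 24.3 in BxPC-3, 148 ± 37.2 in AsPC-1 and 60.9 ± 14.9 in SUIT-2. Of the S100 genes, 5 separated upward and 0 downward of 14 tested (19 in the list), with a median class difference of 0.54. S100A2, a TP63-associated member, was 2064 ± 953 TPM in T3M-4 and 3431 ± 956 in BxPC-3 against 22.7 ± 9.75 TPM in AsPC-1 and 9.403 ± 2.54 in SUIT-2 (class difference 7.41, adjusted p = 0.0109). S100A9, part of calprotectin, separated but was far higher in T3M-4 (1361 ± 171 TPM) than in BxPC-3 (52.2 ± 23.8). S100A4 was 8464 ± 1137 TPM in AsPC-1 and 99.02 ± 15.9 in SUIT-2, a split within the classical class.

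Junction genes separated in part. Of the desmosome genes, 4 separated upward and 0 downward of 10 tested (13 in the list), with a median class difference of 1.32. The squamous cadherins DSG3 and DSC3 had class differences of 3.64 (adjusted p = 0.223) and 3.64 (0.187), and PKP1 and DSP had 4.04 (0.271) and 2.398 (0.268). None of the 9 tested genes of laminin and the hemidesmosome, which anchor the basal keratinocyte, separated the classes (median class difference 0.78). Over all genes 4.73% separated upward and 2.4% downward, so a list of this size may well hold none. Of the claudins and tight junction genes, CLDN2 alone of 20 tested separated, downward. CLDN2, which forms pores for cations, was 26.7 ± 12.3 TPM in AsPC-1 and 435 ± 148 in SUIT-2 against 0.174 ± 0.155 TPM in T3M-4 and 0.0479 ± 0.0573 in BxPC-3. Of the kallikreins, KLK13 alone of 10 tested separated (class difference 3.72, adjusted p = 0.115), and KLK8 and KLK11 were split within the classes, with KLK8 at 142 ± 19 TPM in T3M-4, 4.68 ± 4.69 in BxPC-3, 14.7 ± 5.24 in AsPC-1 and 0.597 ± 0.351 in SUIT-2.

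**Figure D2:**
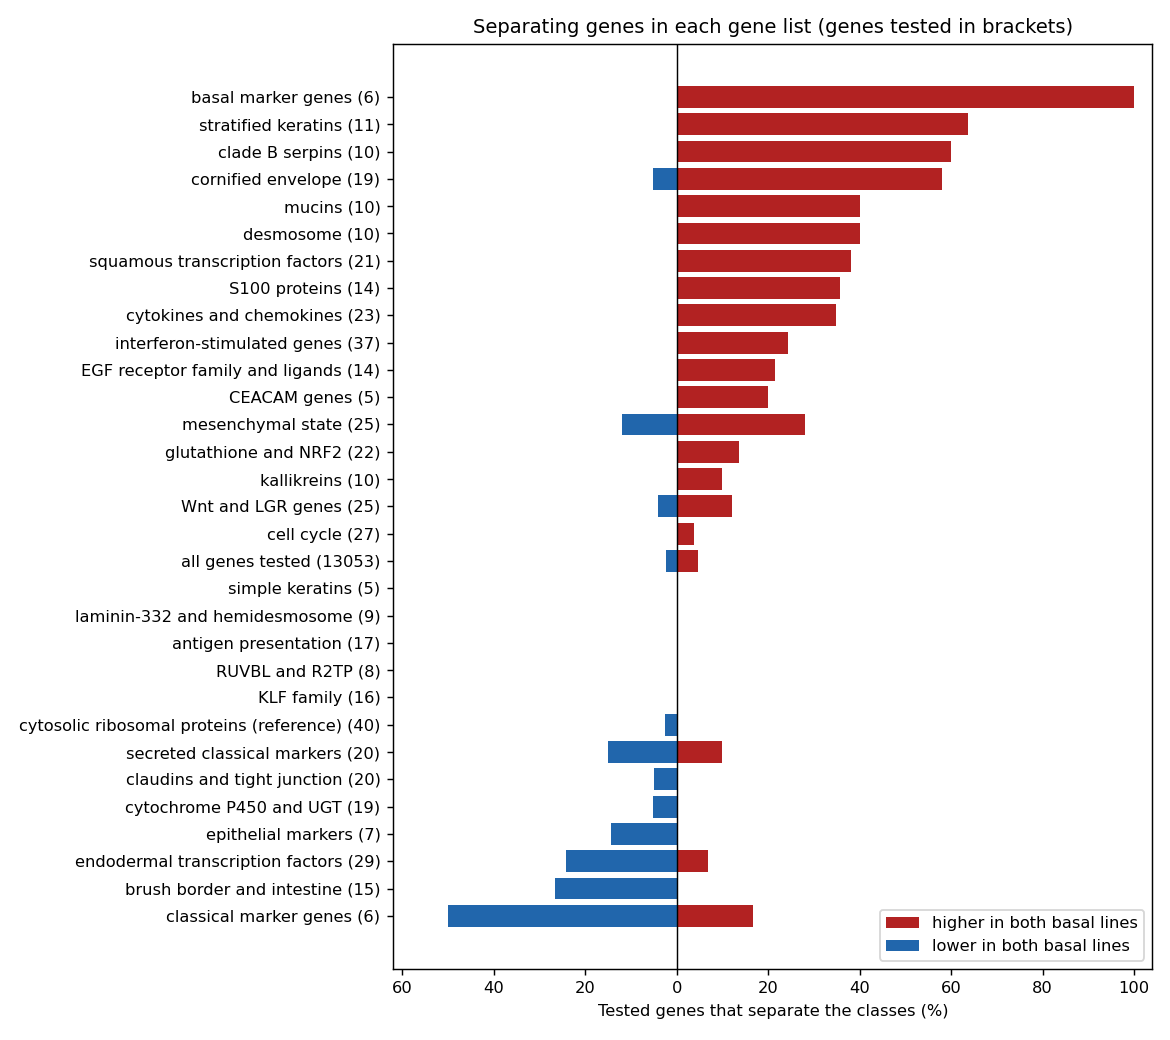
Share of the tested genes of each list that separate the classes, to the right where higher in both basal-like lines (red) and to the left where lower (blue), with the number tested in brackets for the lists with at least 5 tested genes. All genes tested give 4.73% upward and 2.4% downward, basal marker genes 100% upward, and classical marker genes 50.0% downward and 16.7% upward.

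Transcription factors of the squamous lineage were higher in part. Of the squamous factors, 8 separated upward and 0 downward of 21 tested (24 in the list), with a median class difference of 1.19. TP63, whose ΔN isoform is a master regulator of the basal-like state, lay from 66.6 to 109 TPM in T3M-4 (median 88.2, n = 6) and from 96.2 to 111 in BxPC-3 (median 106, n = 6). It lay from 0.589 to 1.12 in AsPC-1 (median 0.957, n = 10) and was 0.1597, 0.345, 0.374 and 0.692 TPM in SUIT-2 replicates 1 to 4. The class difference was 5.88 (standard error 0.41, limma adjusted p = 0.0109), and the groups did not overlap. TPM per gene does not divide TP63 into isoforms. BARX2 (4.89, adjusted p = 0.0733), SOX15 (3.88, 0.0562) and ZNF750 (2.67, 0.147), a factor of terminal epidermal differentiation, separated the classes without passing the class fit. IRX4 was on in T3M-4 (21.9 ± 2.38 TPM) and near 0 in BxPC-3 (0.0966 ± 0.237). VGLL1, a TEAD cofactor, was highest in SUIT-2 (28.6 ± 4.23 TPM) and listed at 0 in AsPC-1.

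Most endodermal factors did not separate the classes. Of the endodermal factors, 2 separated upward and 7 downward of 29 tested (36 in the list), with a median class difference of -1.48. HNF4A, a nuclear receptor of liver, gut and classical PDAC, lay from 40.1 to 75.4 TPM in AsPC-1 (median 47.6, n = 10) and was 7.45, 22.7, 21.4 and 18.99 TPM in SUIT-2 replicates 1 to 4. It lay from 0.122 to 0.437 in T3M-4 (median 0.364, n = 6) and from 0.0492 to 0.322 in BxPC-3 (median 0.215, n = 6), so that no libraries overlapped. Its class difference was -4.602 (standard error 0.67, adjusted p = 0.0797 in the class fit and 9.79e-14 over the line pairs). NR5A2 (-3.49, adjusted p = 0.123), TOX3 (-3.297, 0.0886), ONECUT2 (-2.95, 0.259), the pancreatic and duodenal factor PDX1 (-2.47, 0.148) and the intestinal factor CDX2 (-1.85, 0.325) also separated downward, and none of them passed the class fit. CREB3L3, a factor of liver and gut, was high in 1 classical line alone, at 143 ± 23.02 TPM in AsPC-1 and 0.395 ± 0.102 in SUIT-2.

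GATA6, a factor commonly used to mark classical tumors, did not separate the classes. It was 9.14 ± 1.79 TPM in T3M-4, 36.5 ± 6.83 in BxPC-3, 29.3 ± 6.33 in AsPC-1 and 10.4 ± 2.66 in SUIT-2, so that BxPC-3 lay highest and T3M-4 and SUIT-2 did not differ beyond their spread, with a class difference of 0.08 that turned to -0.073 with median-of-ratios scaling. FOXA2, a pioneer factor of endoderm, went against its list. It was 12.3 ± 1.44 TPM in T3M-4, 17.4 ± 4.74 in BxPC-3, 0.00313 ± 0.00991 in AsPC-1 and 4.92 ± 0.772 in SUIT-2, and thus higher in both basal-like lines (class difference 2.67, adjusted p = 0.344). SPDEF, a factor of mucous and goblet cells, was also higher in the basal-like lines, at 4.12 ± 2.56 TPM in T3M-4 and 9.11 ± 4.82 in BxPC-3 against 0.196 ± 0.153 TPM in AsPC-1 and 0.533 ± 0.397 in SUIT-2.

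**Figure D3:**
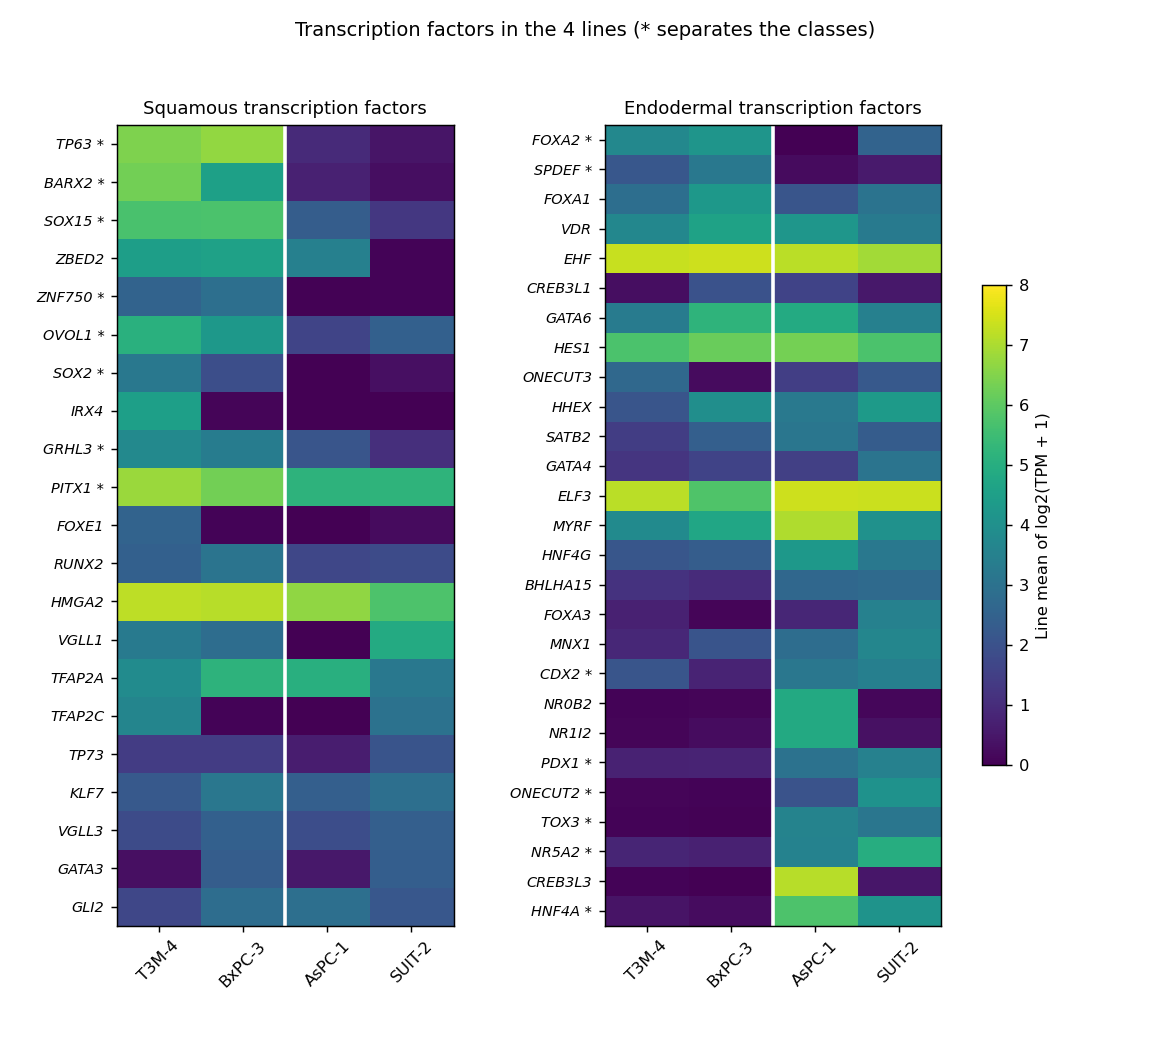
Mean log2(TPM + 1) of each line for tested squamous (left) and endodermal (right) transcription factors, ordered by class difference, with separating genes starred and a white line between the basal-like (left) and classical (right) lines. TP63, BARX2 and SOX15 are bright only in the basal-like lines, HNF4A, NR5A2 and TOX3 only in the classical lines, while CREB3L3, NR0B2 and NR1I2 are each high in AsPC-1 alone.

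Among the genes lower in the basal-like lines, IGFBP1, a secreted binding protein of insulin-like growth factors, had the largest gap (6.97). It lay from 97.98 to 307 TPM in AsPC-1 (median 182, n = 10) and was 656, 882, 1004 and 1147 TPM in SUIT-2 replicates 1 to 4, whereas no basal-like library exceeded 0.372 TPM (class difference -8.38, adjusted p = 0.0315). LGALS4, a galectin of the gut lining, was 530.0 ± 138 TPM in AsPC-1 and 174 ± 6.78 in SUIT-2 against 0.283 ± 0.272 TPM in T3M-4 and 0.706 ± 0.147 in BxPC-3 (class difference -7.68, adjusted p = 0.0159). VNN1, a pantetheinase of intestine and kidney, was 132 ± 35.4 TPM in AsPC-1 and 171 ± 61.3 in SUIT-2 against 0.739 ± 0.309 TPM in T3M-4 and 0.335 ± 0.0986 in BxPC-3 (-6.58, 0.00904). CALB2, which encodes calretinin, had a class difference of -6.96 (0.00904). The matrix genes NPNT (-6.02, 0.0109) and VCAN (-6.14, 0.0313), the secreted kinase PKDCC (-6.26, 0.0382) and the metalloproteinase MMP7 (-5.14, 0.00904) passed the class fit as well. MMP7 was even within the classes, at 371 ± 70.2 TPM in AsPC-1 and 344 ± 98.1 in SUIT-2 against 9.56 ± 4.33 TPM in T3M-4 and 9.16 ± 1.605 in BxPC-3.

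Signalling genes were among them. ARRB1, which encodes beta-arrestin 1, had a class difference of -5.23 (adjusted p = 0.0146), the kinase SGK2 -5.18 (0.0185), the receptor partner RAMP1 -5.98 (0.0496), the phosphatase inhibitor PPP1R1B -5.52 (0.0296) and TRNP1 -5.07 (0.00984). RAMP1 was not past the threshold without SUIT-2 replicate 1 or without any of several other single libraries, which are named further below. TM4SF4, a tetraspan membrane protein, did not pass (-6.05, 0.0582) and was 229 ± 151 TPM in AsPC-1 and 44.2 ± 11.7 in SUIT-2.

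Brush border and drug-metabolising genes were higher in the classical lines for a few members. Of the brush border and intestinal genes, 0 separated upward and 4 downward of 15 tested (27 in the list), with a median class difference of -2.91. USH1C, the scaffold harmonin of microvillar tips, was 169 ± 54 TPM in AsPC-1 and 60.4 ± 13.1 in SUIT-2 against 0.655 ± 0.577 TPM in T3M-4 and 0.1098 ± 0.152 in BxPC-3 (class difference -6.23, adjusted p = 0.0303). DPP4 (-4.804, 0.197), EPS8L3 (-4.21, 0.155) and CLRN3 (-3.63, 0.411) separated. The intestinal cadherin CDH17 and the actin bundler VIL1 were AsPC-1 genes: CDH17 was 0.256 ± 0.291 TPM in T3M-4, 0.262 ± 0.1903 in BxPC-3, 901 ± 236 in AsPC-1 and 0.393 ± 0.0893 in SUIT-2. Of the cytochrome P450 and UGT genes, CYP3A5 alone of 19 tested separated, at 143 ± 88.4 TPM in AsPC-1 and 78.2 ± 30.7 in SUIT-2 against 2.29 ± 0.5996 TPM in T3M-4 and 2.61 ± 0.436 in BxPC-3 (class difference -4.805, adjusted p = 0.0197). UGT1A10 was split within the basal-like class, at 0.169 ± 0.188 TPM in T3M-4 and 234 ± 74.9 in BxPC-3.

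Several genes commonly used as classical markers were higher in the basal-like lines. Of the secreted classical markers, 2 separated upward and 3 downward of 20 tested (25 in the list), with a median class difference of 0.93. LGALS4, TSPAN8 (-6.14, adjusted p = 0.0886) and FCGBP (-3.404, 0.0899) went downward, whereas TFF1, a trefoil factor of gastric mucus, was 12.4 ± 4.01 TPM in T3M-4 and 15.2 ± 5.47 in BxPC-3 against 0.894 ± 0.876 TPM in AsPC-1 and 0.123 ± 0.245 in SUIT-2 (3.35, 0.0846). ANXA10, a gastric annexin, was 86.4 ± 11.9 TPM in T3M-4, 105 ± 55.9 in BxPC-3, 0.45 ± 0.201 in AsPC-1 and 6.53 ± 1.29 in SUIT-2 (4.796, 0.114). CEACAM5, the carcinoembryonic antigen, was 132 ± 26.2 TPM in T3M-4, 214 ± 48.7 in BxPC-3, 3.81 ± 0.658 in AsPC-1 and 9.64 ± 5.56 in SUIT-2, a class difference of 4.63 that passed the class fit (adjusted p = 0.0379), but not without SUIT-2 replicate 1 or with median-of-ratios scaling. S100P was 1825 ± 205 TPM in T3M-4, 825 ± 282 in BxPC-3, 14.6 ± 9.73 in AsPC-1 and 21.97 ± 6.21 in SUIT-2 (6.11, 0.0197). Of the mucins, 4 separated upward and 0 downward of 10 tested (14 in the list), with a median class difference of 1.02. MUC4 was 16.8 ± 15.7 TPM in T3M-4 and 89.7 ± 44.8 in BxPC-3 (class difference 4.82, adjusted p = 0.15), MUC20 had 3.901 (0.158), MUC16 3.14 (0.185) and MUC2 2.04 (0.262). AGR2 was low in AsPC-1 alone (14.4 ± 4.197 TPM against 414 ± 50.1 in SUIT-2, 813 ± 107 in T3M-4 and 283 ± 69.9 in BxPC-3).

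Mesenchymal and epithelial genes did not follow the classes as a block. The mesenchymal state list also holds the epithelial genes CDH1, EPCAM, OVOL2, ESRP1, ESRP2 and GRHL2, so its counts and median pool both kinds. Of its genes, 7 separated upward and 3 downward (VIM, ZEB1 and the epithelial EPCAM) of 25 tested (30 in the list), with a median class difference of 1.699. VIM, the intermediate filament vimentin, was 2.85 ± 3.56 TPM in T3M-4, 39.9 ± 8.35 in BxPC-3, 3742 ± 365 in AsPC-1 and 331 ± 90.4 in SUIT-2 and thus lower in both basal-like lines (class difference -6.65, adjusted p = 0.221). ZEB1, a repressor of epithelial genes, was 0.233 ± 0.1399 TPM in T3M-4, 0.383 ± 0.135 in BxPC-3, 12.9 ± 3.47 in AsPC-1 and 2.72 ± 1.56 in SUIT-2 (-2.402, 0.326). The epithelial adhesion gene EPCAM was lower in the basal-like lines too, at 108 ± 19.8 TPM in T3M-4, 153 ± 15.4 in BxPC-3, 914 ± 78.7 in AsPC-1 and 569 ± 72.5 in SUIT-2 (-2.48, 0.095). It alone separated of the 7 epithelial markers, of which 3 had a class difference above 0. CDH1 was on average higher in the basal-like lines without separating (class difference 1.70, adjusted p = 0.397). It was 89.1 ± 18.4 TPM in T3M-4, 226 ± 9.27 in BxPC-3, 28.8 ± 12.5 in AsPC-1 and 73.5 ± 27.7 in SUIT-2. Unlike VIM and ZEB1, COL12A1 (5.43, 0.0731), CALD1 (5.22, 0.0546), THBS1 (3.4, 0.115), FN1 (2.91, 0.109), COL1A1 (2.43, 0.185) and CDH2 (1.54, 0.416) were higher in the basal-like lines. FN1 and CDH2 stayed low, with basal-like libraries at 4.397 to 13.3 TPM and 0.9797 to 4.07 TPM. GRHL2 and ESRP1, which maintain epithelial splicing and adhesion, were low in AsPC-1 alone, with GRHL2 at 0.00599 ± 0.0126 TPM in AsPC-1 against 27.4 ± 11.04 in SUIT-2.

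Some cytokine and interferon-stimulated genes were higher in the basal-like lines, and most members of both lists did not separate. Of the cytokines and chemokines, 8 separated upward and 0 downward of 23 tested (29 in the list), with a median class difference of 2.12. IL1A lay from 152 to 280.4 TPM in T3M-4 (median 171, n = 6) and from 129 to 190.4 in BxPC-3 (median 146, n = 6), against from 0.253 to 2.26 in AsPC-1 (median 0.778, n = 10), and was 0.0497, 0.165, 0.0846 and 0.227 TPM in SUIT-2 replicates 1 to 4. Its class difference was 6.896 (adjusted p = 0.00904), and IL1B (6.79, 0.0157) and the receptor antagonist IL1RN (5.32, 0.0387) passed as well. CXCL10 was 8.01 ± 5.39 TPM in T3M-4 and 23.5 ± 15.99 in BxPC-3 (class difference 3.57, adjusted p = 0.137). Of the interferon-stimulated genes, 9 separated upward and 0 downward of 37 tested (38 in the list), with a median class difference of 1.43, and SAMD9 alone passed the class fit (3.47, 0.0482), which it did not without SUIT-2 replicate 1 or BxPC-3 replicate 2.3 or with median-of-ratios scaling. IFI6 was 79.5 ± 43.1 TPM in T3M-4 and 134 ± 82.9 in BxPC-3 against 10.02 ± 5.05 TPM in AsPC-1 and 11.2 ± 0.347 in SUIT-2. Its class difference was 3.05 over all libraries (0.0695), 2.90 with rep1.x libraries of the lines other than SUIT-2 and 2.71 with the later experiments. IFITM2 and IRF7 were split within the basal-like class, with IFITM2 at 6.903 ± 5.15 TPM in T3M-4 and 303 ± 144 in BxPC-3 and IRF7 at 35.4 ± 12.4 TPM in T3M-4 and 0.519 ± 0.826 in BxPC-3. None of the 17 tested genes of antigen presentation separated. HLA-C was 296 ± 105 TPM in T3M-4, 254 ± 26.97 in BxPC-3, 33.8 ± 19.5 in AsPC-1 and 501 ± 60.7 in SUIT-2, and HLA genes differ in sequence between people, which can affect mapping.

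Growth factor and metabolic lists gave a few members each. NRG1, the ligand neuregulin 1, was 92.2 ± 26.6 TPM in T3M-4 and 52.1 ± 5.398 in BxPC-3 against 0.123 ± 0.0567 TPM in AsPC-1 and 1.18 ± 0.261 in SUIT-2 (class difference 5.47, adjusted p = 0.0308), and HBEGF had 2.25 (0.122) and the receptor inhibitor LRIG1 1.88 (0.37), which makes 3 of 14 tested genes of the EGF receptor list. Of the Wnt and LGR genes, 3 separated upward and 1 downward of 25 tested (30 in the list), with a median class difference of -0.31. NKD2, an antagonist of Wnt signalling, was higher in the basal-like lines (4.86, 0.0278), as were WNT9A (2.92, 0.113) and ASCL2 (1.88, 0.349), and the feedback gene AXIN2 was lower (-1.49, 0.379). LGR5 was an AsPC-1 gene, at 24.5 ± 2.98 TPM in AsPC-1 and 0.9896 ± 0.643 in SUIT-2. Of the glutathione and NRF2 genes, 3 separated upward and 0 downward of 22 tested (25 in the list), with a median class difference of 1.16, with ALDH3A1 at 1564 ± 287 TPM in T3M-4, 679 ± 138 in BxPC-3, 164 ± 44.8 in AsPC-1 and 45.2 ± 10.7 in SUIT-2. CDKN1A, the cell cycle inhibitor p21, was the only one of 27 cell cycle genes to separate (2.26, 0.135). CDKN2A was split, at 92.7 ± 17.9 TPM in T3M-4, 0.806 ± 1.48 in BxPC-3, 159.7 ± 14.3 in AsPC-1 and 32.96 ± 5.46 in SUIT-2. Of the 40 cytosolic ribosomal protein genes, which served as a reference list, RPS7 alone separated (-1.47, 0.25), and the list's median was -0.35.

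The 15 largest upward gaps also held genes outside the squamous lists. LCP1, an actin bundler best known from leukocytes, lay from 303 to 334 TPM in T3M-4 (median 317, n = 6) and from 368 to 382 in BxPC-3 (median 371, n = 6). No classical library exceeded 0.121 TPM, and the class difference was 8.37 (adjusted p = 0.00819). HCLS1, the hematopoietic relative of cortactin, was 109 ± 11.7 TPM in T3M-4 and 197 ± 9.56 in BxPC-3 against 0.0618 ± 0.0573 TPM in AsPC-1 and 0.014 ± 0.02799 in SUIT-2 (7.15, 0.00904). Other genes known from blood cells were looked up after their values had been seen. FERMT3 (6.55, 0.00984), which encodes kindlin-3, FLI1 (5.398, 0.0157), an ETS factor, and IL7R (4.21, 0.043) passed the class fit, and LAPTM5 (6.09, 0.11) separated. Of the 7 leukocyte markers, 3 were tested and none separated, with a median class difference of 0.34. FST, which encodes the activin antagonist follistatin, was 492 ± 115 TPM in T3M-4 and 1569.8 ± 525 in BxPC-3 against 0.0465 ± 0.07804 TPM in AsPC-1 and 0.182 ± 0.0904 in SUIT-2 (9.57, 0.00904). ANXA8L1 had a class difference of 7.39 (0.00904), and it and ANXA8 are near-identical copies.

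MAGEA3, a cancer-testis gene that is silent in most adult tissues, was 133 ± 9.45 TPM in T3M-4 and 196 ± 35.2 in BxPC-3 and was listed at 0 in all 14 classical libraries (class difference 7.34, adjusted p = 0.00904). It belongs to a run of neighbours. When tested genes were ordered along the chromosomes by RefSeq positions (GRCh38.p14, the assembly behind hg38), 14 runs of at least 3 consecutive tested genes that separated in 1 direction were found. The longest were 9 genes on chromosome X from 152166234 to 152769689 (GABRA3, MAGEA3, CSAG2, MAGEA2B, CSAG1, MAGEA12, MAGEA2, CSAG3 and MAGEA6) and 9 on chromosome 1 from 152908546 to 153203278 (IVL, SPRR1A, SPRR3, SPRR1B, SPRR2D, SPRR2A, SPRR2E, SPRR2F and SPRR2G), both upward. The latter is part of the epidermal differentiation complex. A run of 5 clade B serpins lay on chromosome 18 from 63587343 to 63903888, and KRT6A, KRT5 and KRT4 made a run of 3 on chromosome 12 from 52487176 to 52814116. MAGEA1, MAGEA6 and MAGEA12 were also listed at 0 in the classical libraries, and were 87.1 ± 3.12 TPM in T3M-4 and 92.3 ± 9.7 in BxPC-3, 116 ± 11.1 TPM in T3M-4 and 62.8 ± 24.1 in BxPC-3 and 69.02 ± 7.58 TPM in T3M-4 and 41.7 ± 3.68 in BxPC-3. MAGEA3 and MAGEA6, MAGEA2 and MAGEA2B, and CSAG2 and CSAG3 are near-identical, so the number of separate genes on may be smaller.

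Downward runs were 2 and shorter. HOXB8, HOXB9 and HOXB13, homeobox genes that pattern the hind part of the body, lay side by side on chromosome 17 from 48612346 to 48728750. HOXB8 was 0.08203 ± 0.0315 TPM in T3M-4, 0.182 ± 0.0912 in BxPC-3, 36 ± 5.76 in AsPC-1 and 2.71 ± 0.845 in SUIT-2, and HOXB13 was 1.01 ± 0.322 TPM in T3M-4, 0.649 ± 0.259 in BxPC-3, 5.61 ± 2.74 in AsPC-1 and 3.64 ± 0.936 in SUIT-2. TM4SF18, TM4SF1 and TM4SF4 lay on chromosome 3 from 149318498 to 149503394. Of the upward separating genes with a position, 20.9% (128 of 611) had another upward separating gene starting within 100 kb, against 6.72% of the other tested genes, and downward it was 13.9% (43 of 310) against 4.47%. Copies of one family share reads and location, so these shares are descriptions.

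Promoters of the separating genes were read from RefSeq (GRCh38.p14), which held an entry for 10412 of the tested genes. To show what the genes with the largest gaps look like upstream, the 150 bases before the start site of 3 upward and 3 downward genes are given 5′ to 3′. They were chosen, after the matches were seen, from the 8 largest gaps with an entry in each direction. Capitals mark matches on either strand to TGANTCA, which AP-1 binds, to GGAATG, which TEAD factors bind, and to the letters AGATAA of GATA factors. They also mark the TATA box, searched as TATAAA on the printed strand from 45 to 15 bases before the start. None of these motifs contains another.
SERPINB2, chr18:63887555-63887704, plus strand: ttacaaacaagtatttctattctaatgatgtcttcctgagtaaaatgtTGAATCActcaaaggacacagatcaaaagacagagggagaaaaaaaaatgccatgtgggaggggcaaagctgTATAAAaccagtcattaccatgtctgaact
SPRR1B, chr1:153031053-153031202, plus strand: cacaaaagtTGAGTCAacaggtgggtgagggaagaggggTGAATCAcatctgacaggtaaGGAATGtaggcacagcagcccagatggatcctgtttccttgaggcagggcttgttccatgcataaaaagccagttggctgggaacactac
SPRR1A, chr1:152983931-152984080, plus strand: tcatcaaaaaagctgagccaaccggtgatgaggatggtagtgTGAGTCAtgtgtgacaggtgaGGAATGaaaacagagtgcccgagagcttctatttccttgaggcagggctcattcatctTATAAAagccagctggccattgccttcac
MMP7, chr11:102530748-102530897, minus strand: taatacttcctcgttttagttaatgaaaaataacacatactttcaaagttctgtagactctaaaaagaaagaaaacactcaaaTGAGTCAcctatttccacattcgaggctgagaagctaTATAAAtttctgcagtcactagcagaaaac
LGALS4, chr19:38812946-38813095, minus strand: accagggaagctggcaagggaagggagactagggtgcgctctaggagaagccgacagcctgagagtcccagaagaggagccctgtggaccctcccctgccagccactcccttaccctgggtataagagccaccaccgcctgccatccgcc
TM4SF4, chr3:149474547-149474696, plus strand: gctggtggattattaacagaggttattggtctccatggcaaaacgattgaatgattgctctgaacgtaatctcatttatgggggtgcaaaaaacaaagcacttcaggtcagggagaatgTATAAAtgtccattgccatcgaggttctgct
The AP-1 letters occur in these 150 bases for 3 of the 8 upward genes with the largest gaps and an entry (SERPINB2, SPRR1B and SPRR1A) and not in those of FST, LCP1, KRT5, MAGEA3 and ANXA8L1, so the upward promoters shown were picked for their matches. Of the 8 downward genes MMP7 alone has one, and LGALS4 has none of the marked motifs in this window.

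Over the 250 bases before the start, TGANTCA on either strand was found in 11.7% of the promoters of upward separating genes (54 of 460), 4.51% of downward ones (11 of 244) and 3.83% of the other tested genes (372 of 9708), and in 6.57% of all 35116 promoters in the table. TATAAA was found in 7.17%, 1.64% and 1.75%, and in 2.38% of all promoters. CCGGAAG, a match of ETS factors, was rarer in both directions (4.78% and 5.33%) than in other genes (16.6%; 8.52% of all promoters). GGGNGTGGC, bound by KLF factors, was in 5.43%, 7.79% and 6.72% (4.76% of all). GGAATG was in 11.5%, 12.3% and 9.43% (11.9% of all). AGATAA was in 6.96%, 6.56% and 4.39% (9.17%), and TTTATG (CDX) in 10%, 8.2% and 4.86% (9.64%). CAAAGTCCA, a match of HNF4, and a longer match of the p53 family were in under 1% of each group. The median GC content was 61.2% for upward, 65.6% for downward and 64.8% for other promoters, and the motif shares were not adjusted for it.

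**Figure D4:**
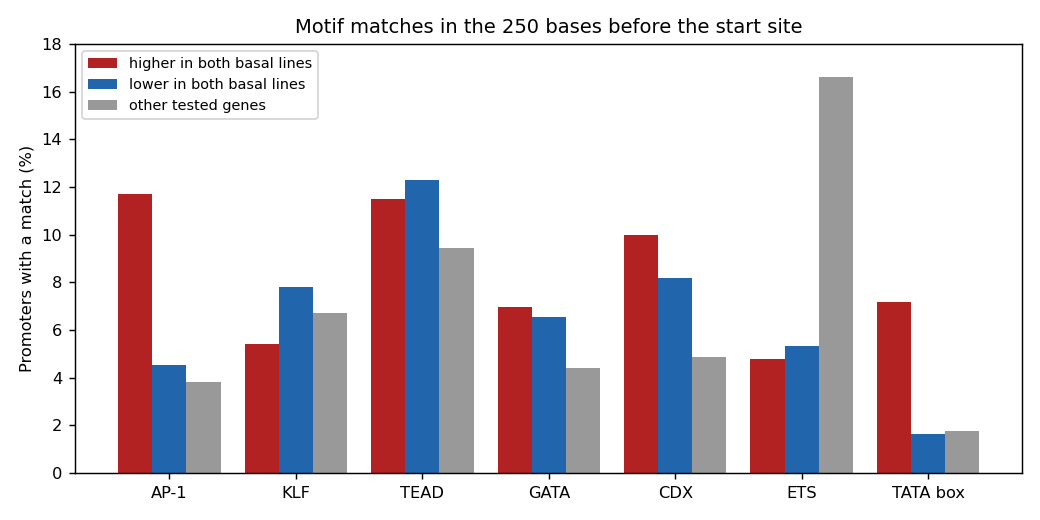
Share of promoters with a match to each motif in the 250 bases before the start site, for genes higher in both basal-like lines (red, 460 promoters), lower in both (blue, 244) and the other tested genes (gray, 9708). The AP-1, TATA box, CDX and GATA bars are highest for the genes higher in the basal-like lines, for CDX and GATA by little over the lower genes. The KLF and TEAD bars are highest for the lower genes, and the ETS bar is highest for the other genes.

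Published tumor signatures were counted in the same way. Subtypes are assigned with such signatures, so their counts are not independent evidence of the classes. Of the Moffitt Basal-like genes, 55 separated upward and 2 downward of 158 tested (173 in the list), with a median class difference of 1.401, and of the Moffitt Classical genes, 8 separated upward and 39 downward of 185 tested (232 in the list), with a median class difference of -1.06. The median of all genes was 0.16. Of the Bailey Squamous genes, 122 separated upward and 6 downward of 389 tested (495 in the list), with a median class difference of 1.101, and of the Bailey Progenitor genes, 9 separated upward and 62 downward of 311 tested (495 in the list), with a median class difference of -1.09. Of the Chan-Seng-Yue Basal A genes, 120 separated upward and 0 downward, with a median class difference of 1.501, and of the Classical A genes, 18 separated upward and 38 downward of 240 tested (334 in the list), with a median class difference of -0.72. CALB2 and PMEPA1 were the Moffitt Basal-like genes that went downward. The Moffitt Classical genes that went upward were DQX1, VILL, SPDEF, SLC26A9, TFF1, TMPRSS4, CEACAM5 and ANXA10. The filter keeps a gene that is high in any line, so these counts describe and do not test the lists.

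The mean level of a signature relative to the median gene of a library gave scores that placed the lines. The Moffitt Basal-like score was 1.28 ± 0.13 in T3M-4 and 1.22 ± 0.08 in BxPC-3 (SD, n = 6 each), -0.13 ± 0.13 in SUIT-2 (n = 4) and -0.69 ± 0.11 in AsPC-1 (n = 10). The Moffitt Classical score was -0.07 ± 0.28 in AsPC-1, -0.43 ± 0.10 in SUIT-2, -1.57 ± 0.13 in T3M-4 and -1.58 ± 0.11 in BxPC-3. On both scores the basal-like lines lay within their spread of each other, and AsPC-1 lay further from them than SUIT-2 did. The order of the classical lines was not the same for other signatures: the Chan-Seng-Yue Classical A score was -1.05 ± 0.14 in SUIT-2 and -1.10 ± 0.19 in AsPC-1, and the Bailey Progenitor score was -0.94 ± 0.09 and -0.90 ± 0.26, within the spread of the libraries.

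Libraries that were not used to choose the genes were set beside them. The empty-vector libraries and the controls for the CHD4 knockout come from T3M-4 and AsPC-1, whose means did choose the genes. Their agreement therefore describes how well these lines repeat and is not independent of the choice. In the empty-vector DMSO libraries, 1 each of T3M-4 and AsPC-1 and thus without a replicate, 452 of the 618 upward genes were at least 1 higher in T3M-4 and 293 of the 313 downward genes at least 1 lower. KRT5 was 1846 TPM in T3M-4 and 1.11 in AsPC-1 there, so that T3M-4 was well above its sgRosa libraries, which lay from 255 to 349 TPM in T3M-4 (median 331, n = 6), and HNF4A was 0.324 TPM in T3M-4 and 55.7 in AsPC-1. IL1A was 95.6 TPM in T3M-4 and 16.6 in AsPC-1, above the sgRosa libraries of AsPC-1. The sign was the same for 595 of the 618 upward and 312 of the 313 downward genes. Among the named upward genes it was opposite for CDKN1A, GCLM, HBEGF and SAMD9L, with CDKN1A at 67.1 TPM in T3M-4 and 81.9 in AsPC-1 and HBEGF at 21.2 TPM in T3M-4 and 28.1 in AsPC-1. The 4 sgRosa libraries of AsPC-1 made for the CHD4 knockout lay nearer the basal-like than the classical mean for 1 upward and 2 downward genes. CFPAC-1, another PDAC line with 4 sgRosa libraries, lay between: it was nearer the basal-like mean for 268 of the upward and 103 of the downward genes. TP63 was 0.516 to 1.01 TPM and KRT5 0 to 0.484 TPM in CFPAC-1, LGALS4 was 0.847 to 1.65 TPM, HNF4A was 7.8 to 13.6 TPM and VIM was 2774 to 3089.6 TPM. Some genes that were higher in both basal-like lines reached similar or higher levels in CFPAC-1. ANXA10 was 546 to 628 TPM there, FOXA2 17.5 to 26.1, SPDEF 11.4 to 32.3 and IFI6 286 to 391. CEACAM5 (9.49 to 28.4 TPM) and S100P (28.8 to 76.3 TPM) lay well below the means of the basal-like lines. The study's methods give DMEM as the medium of CFPAC-1 and RPMI for the other 4 lines, and its part in these values was not tested.

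**Figure D5:**
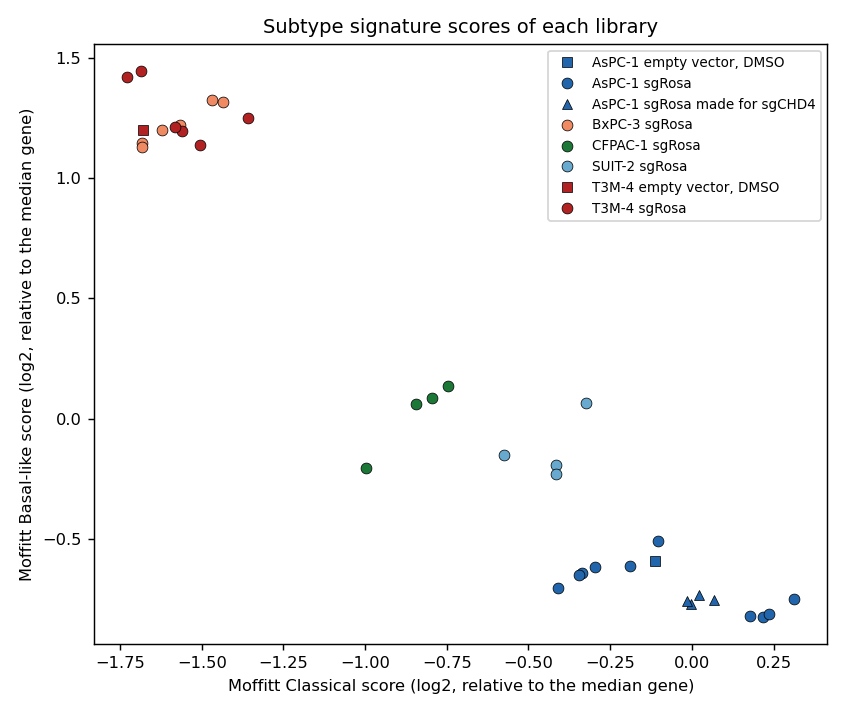
Moffitt Classical score (x axis) against Moffitt Basal-like score (y axis) of each library, as the mean log2(TPM + 1) of the signature minus the median gene. T3M-4 and BxPC-3 (red) lie at the upper left with Basal-like scores of 1.13 to 1.45, AsPC-1 and SUIT-2 (blue) at the lower right, and CFPAC-1 (green) between.

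KLF5, RUVBL1 and RUVBL2, the genes the study is about, did not separate the classes. KLF5, a transcription factor of epithelial progenitors, lay from 262 to 399.8 TPM in T3M-4 (median 317, n = 6), from 282 to 354 in BxPC-3 (median 322, n = 6) and from 102 to 162 in AsPC-1 (median 131, n = 10), and was 118, 241, 261 and 292 TPM in SUIT-2 replicates 1 to 4. T3M-4 and BxPC-3 did not differ beyond their spread, AsPC-1 was lowest on average, and the SUIT-2 libraries overlapped those of the basal-like lines. The class difference was 0.91 (standard error 0.37, adjusted p = 0.407 in the class fit and 0.0254 over the line pairs). RUVBL1, an AAA+ ATPase, was 149.9 ± 8.04 TPM in T3M-4, 127 ± 25.4 in BxPC-3, 89.2 ± 8.66 in AsPC-1 and 109 ± 17.1 in SUIT-2, and its partner RUVBL2 was 151 ± 10.1 TPM in T3M-4, 222 ± 18.6 in BxPC-3, 116 ± 17.2 in AsPC-1 and 115 ± 12.5 in SUIT-2, with class differences of 0.47 (0.592) and 0.67 (0.502). None of the 16 tested KLF and SP genes separated. KLF6 and KLF11 were higher in AsPC-1 than in SUIT-2, with KLF6 at 160.3 ± 45.5 and 13.5 ± 4.95 TPM.

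The threshold for separating genes is a line through a continuum. Just inside it lay ZNF551 (gap 1.004) and FOXN3 (1.005) upward, and EDA and BCL2L15 (1.004 and 1.003) downward. Just outside lay KRT7 and FAM174B (0.997 and 0.998) upward, and ANXA13 (0.997) and ECHDC2 (0.99) downward. With a gap of at least 2, 247 genes separated upward and 118 downward.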

How the data were processed

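Poly-A RNA was measured by single-end RNA-seq of 76 bases in the 26 sgRosa libraries of T3M-4, BxPC-3, AsPC-1 and SUIT-2. The authors used kallisto for pseudo-alignment against hg38 and tximport for TPM, which were deposited for 19875 genes. They name the removal of transcripts of low abundance beside their differential expression step. Whether it was applied to the deposited TPM is not stated. Each library sums to 1e+06 TPM, so depth and counting error are unknown. The 4 tables were made separately, and TPM is scaled only within a library.

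Deposited values were taken as log2(TPM + 1), with a pseudocount of 1 that understates differences of genes with few TPM, and averaged per line. The filter asked that the 4 line means average 1 TPM or above (13053 genes). The class fit was run on the 4 line means with limma 3.58.1 in R 4.3.3, with a mean-variance trend. The line-pair test fitted all 26 libraries with 1 mean per line (22 residual degrees of freedom), took for each gene the largest p of the 4 basal-like against classical contrasts where their signs were the same, and otherwise 1. Both received a Benjamini-Hochberg adjustment over all genes, with a threshold of 0.05, and adjusted p-values in the text are from the class fit unless said otherwise. Nothing in the labels says that libraries of a line came from separate cultures, so the library-level test measures only the spread between these libraries.

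Both tests were tested on simulated data. Named genes are the 15 with the largest gaps in each direction, up to 4 separating members per direction and up to 2 members split within a class in each gene list, KLF5, RUVBL1, RUVBL2, TP63, HNF4A, GATA6, KRT5 and SERPINB5, and genes at the threshold. Further genes are said to have been looked up afterwards, or were members of the runs of neighbours or of the signatures. The comparison and the lists were chosen with earlier results of these data known. Alternatives were no filter, a filter at 5 TPM, a pseudocount of 0.1, median-of-ratios scaling, experiment means, added AsPC-1 controls, single experiments, line as a random effect, no trend, a gap of 2, and leaving out each library and each line. Gene names were used as the tables give them; 572 of the tested names are not current symbols. No count test could be run on TPM. A few genes of the lists are not reported here. Other data types of the series were not analysed here.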

Additional observations from a re-analysis of the deposited data

Results flagged for a closer look

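Single libraries lay far from the others of their line for 27 of 440 tested combinations of a gene or library measure and a line (Dixon's test at 95%), where chance gives about 1 in 20. SUIT-2 replicate 1 held 12 of them. It was the highest for the share of TPM in the 100 most abundant genes (51.3%) and the lowest for CDKN1A (12.7 TPM, median 26.2), COL1A1 (0.196 TPM, median 1.19), DSP (9.904 TPM, median 23.2), GATA6 (6.52 TPM, median 11.5), GRHL2 (11.2 TPM, median 31.8), HNF4A (7.45 TPM, median 20.2), KLF6 (6.07 TPM, median 15.8), NRG1 (0.784 TPM, median 1.303), SERPINB5 (38.6 TPM, median 67.8), SGK2 (26.1 TPM, median 67.02) and TOX3 (3.06 TPM, median 10.2). T3M-4 replicate 2.4 held 7, as the lowest library for CYP2W1 (3.39 TPM, median 6.19), DSC3 (6.44 TPM, median 11.9), DSP (106 TPM, median 174), KLF11 (6.46 TPM, median 8.89), LRIG1 (1.34 TPM, median 2.36), SOX15 (35.7 TPM, median 54.9) and WNT9A (4.704 TPM, median 8.83). Its median-of-ratios factor was 0.931, the lowest in the basal-like lines.

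BxPC-3 replicate 2.3 was the highest of its line for CDKN2A (3.81 TPM, median 0.285), CDKN2B (1.603 TPM, median 0), IRF7 (2.17 TPM, median 0.222) and PPP1R1B (2.53 TPM, median 1.64). In the other lines, CDKN2A was 92.7 ± 17.9 TPM in T3M-4, 159.7 ± 14.3 in AsPC-1 and 32.96 ± 5.46 in SUIT-2, IRF7 was 35.4 ± 12.4, 15.9 ± 4.04 and 12.1 ± 0.999, and PPP1R1B was 0.319 ± 0.241, 71.1 ± 18.6 and 111 ± 41.04. Over the 31 genes absent from the other BxPC-3 libraries and high in T3M-4, 19 exceeded 2% of their T3M-4 level in this library.

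The remaining libraries were BxPC-3 replicate 2.1 for CYP3A5 (1.81 TPM, median 2.65) and BxPC-3 replicate 2.4 for MMP7 (6.13 TPM, median 9.51), both lowest, AsPC-1 replicate 1.2 for LGR5 (17.7 TPM, median 24.8), lowest, and AsPC-1 replicate 3.4 for HLA-DMB (1.24 TPM, median 0.418), highest.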

How the results depend on the processing

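No paired analysis was possible because line means carry no replicate number. The counts of the class fit (66 and 23) stayed within 1.5 times under the other settings, though not always with the same genes, but were 1 and 0 without the filter and 0 and 0 with any 1 line left out (1641 genes had an unadjusted p under 0.05 in limma with all lines), and 1036 and 593 with line as a random effect (correlation 0.7), where libraries enter as samples. Leaving out 1 library or line gave 0 to 72 and 0 to 25. The line-pair test (1698 and 847) gave 464 and 250 with experiment means, 762 and 413 with rep1.x libraries only, and 1538 to 3656 and 756 to 2746 with 1 library or line left out. Separating genes (618 and 313) numbered 247 and 118 at a gap of 2 and 572 to 1304 and 305 to 969 with 1 library or line left out; a line left out removes a condition, so more genes meet it. For the other counts the cause was not tested.

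Of the 44 named genes that passed the class fit, 41 passed without each single library. RAMP1, SAMD9 and CEACAM5 did not pass without SUIT-2 replicate 1, RAMP1 and SAMD9 without BxPC-3 replicate 2.3 or AsPC-1 replicate 3.1, SAMD9 without AsPC-1 replicate 2.2 or SUIT-2 replicate 4, and RAMP1 without BxPC-3 replicate 2.2 or 2.4 or T3M-4 replicate 2.1, 2.2 or 2.3. Of the 44, 8 did not pass with rep1.x libraries only (KRT13, KRT14, RAMP1, S100P, SAMD9, SERPINB13, SPRR2D and VCAN). With the later experiments only, 8 did not pass (CEACAM5, CYP3A5, IL1RN, KRT5, PKDCC, PPP1R1B, SAMD9 and USH1C). With a pseudocount of 0.1 it was 7 (IL1B, KRT13, NRG1, PPP1R1B, RAMP1, SAMD9 and VCAN), and without the trend 4 (CEACAM5, KRT5, RAMP1 and SAMD9). A further 2 settings were median-of-ratios scaling, with 2 lost (CEACAM5 and SAMD9), and experiment means, with 2 lost (RAMP1 and SAMD9). Without the filter 43 did not pass. Of 146 named genes, 128 kept the sign of their class difference under every alternative, and all 18 others do not separate the classes. With 1 library or line left out their class differences ran over 0, with the ranges CDKN2A -5.601 to 0.33, CDKN2B -1.66 to 2.53, CLDN10 -2.41 to 1.35, CYP2W1 -2.77 to 0.93, ESRP1 -0.29 to 4.85, GATA6 -0.86 to 1.02, GPX2 -0.899 to 4.56, HLA-C -0.91 to 3.17, IFITM2 -3.37 to 2.03, IRF7 -3.4 to 1.23, KLF11 -0.83 to 2.25, KLF6 -2.38 to 1.13, KLK11 -0.88 to 3.14, KLK8 -0.19 to 4.88, LUM -4.25 to 2.44, MUC13 -2.15 to 3.597, UGT1A10 -5.49 to 2.11 and VGLL1 -1.82 to 3.06. GATA6 was also -0.073 with median-of-ratios scaling and -0.18 with rep1.x libraries only, and LUM 0.21 with a pseudocount of 0.1. Depth is unknown, and 4 lines limit what can be said of the subtypes.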

Other observations

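Further genes that separate upward were picked after their values were seen and stand for no list. SAA1, an acute phase protein, was 155 ± 99.7 TPM in T3M-4 and 121 ± 89.8 in BxPC-3 against 0.229 ± 0.311 TPM in AsPC-1 and 0.262 ± 0.18 in SUIT-2 (class difference 6.38, adjusted p = 0.00904). CASP1, which cleaves the precursor of IL1B, was 107 ± 38.5 TPM in T3M-4 and 67.6 ± 16.6 in BxPC-3 against 0.0725 ± 0.204 TPM in AsPC-1 and 0.795 ± 0.417 in SUIT-2 (5.92, 0.0169), and PTGS2, the inducible cyclooxygenase, was 43.1 ± 6.96 TPM in T3M-4 and 155 ± 57.9 in BxPC-3 and listed at 0 in AsPC-1 (6.31, 0.0379). The complement gene C3 was 182 ± 105 TPM in T3M-4 and 24.2 ± 10.3 in BxPC-3 (5.23, 0.124), and ICAM1 was 21.98 ± 13.1 TPM in T3M-4 and 114 ± 62.3 in BxPC-3 (4.18, 0.173). TRIM29 had 7.13 (0.00904) and IGFL1 6.76 (0.00904).

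By chromosome, the share of tested genes that separated upward ran from 1.97% (chromosome 16) to 7.23% (chromosome 1), and downward from 0.248% (chromosome 15) to 5.35% (chromosome 2). Copy number was not analysed here.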
